A study of Mus musculus with 5 samples.

Results

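The 7 genes described here belong to 2 vascular peptide systems and were measured in single interstitial cells of the adult mouse heart. They are the ligand Apln and its receptor Aplnr, the ligand Adm, its receptor Calcrl with the partners Ramp2 and Ramp3, and Nes, which encodes the filament protein nestin. These 7 genes, of 17902 listed in at least 1 library, were chosen by their measured levels in these same cells. Their levels are therefore given as a description, with no test. All 7 were listed in each of the 5 libraries.

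The study sorted cells that remained after cardiomyocytes were removed from collagenase-digested hearts, using antibodies to the surface proteins cKit and DDR2, and sequenced them with a droplet method that counts the 3' ends of messenger RNA with molecular identifiers (UMIs). The labels give 4 sorts: cKit-/DDR2+, cKit+/DDR2- with 2 libraries, cKit+/DDR2+/CD45- and cKit+/DDR2+/CD45+, CD45 being the surface marker of blood-derived cells. No strain, age in weeks, sex or number of hearts is given, and nothing says that the cKit+/DDR2- libraries came from separate animals. Those libraries are called replicate 1 and replicate 2 in the order in which the series lists them. Values for all libraries follow the order cKit-/DDR2+, cKit+/DDR2- replicate 1, cKit+/DDR2- replicate 2, cKit+/DDR2+/CD45- and cKit+/DDR2+/CD45+, shortened to "in library order".

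The libraries differed in size, in makeup and in how far their RNA followed the labels. They held 2280, 436, 3020, 1327 and 3898 cells in library order and between 4047326 and 44847778 UMIs. Ddr2 RNA was highest in the cKit-/DDR2+ library, at 106 CPM (UMIs per 1000000 UMIs). In the library labelled cKit+/DDR2+/CD45+, Kit stood at 3.44 CPM and Ddr2 at 1.36 CPM over all cells, against 22.6 and 15.3 CPM in cKit+/DDR2+/CD45-, and 3164 of its 3707 analysed cells were macrophage-like. In library order the X-inactivation gene Xist had levels of 0, 0, 496, 757 and 0.0671 CPM, high only in cKit+/DDR2- replicate 2 and cKit+/DDR2+/CD45-. The Y-linked gene Ddx3y ran the other way, at 98.6, 80.3, 0, 0 and 58.7 CPM. By these 2 genes the libraries differ in sex, and the cKit+/DDR2- replicates lie on different sides. The 2 libraries with high Xist also carried more Gm42418 RNA, 90875.6 and 105710 CPM against 9794 to 13922 CPM elsewhere, so that this RNA takes a larger part of their UMIs. Of the cells labelled cKit+/DDR2+/CD45+, 190 (4.87%) carried a barcode that also stood in cKit+/DDR2- replicate 1, where they make up 43.6% of the cells. In all 190 pairs the best-matching profile was the one with the same barcode, and the copy in cKit+/DDR2+/CD45+ was shallow, with a median of 622.5 UMIs. These 190 copies were left out. Other pairs of libraries shared 1 to 3 barcodes.

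Apelin, the product of Apln, is a secreted peptide of endothelial cells, made by tip cells at the front of growing vessels and by endothelium that lacks oxygen. Its receptor Aplnr couples to inhibitory G proteins, and in the heart the system acts on vessel growth, vessel tone and contraction. Adrenomedullin, the product of Adm, signals through Calcrl, a receptor of the calcitonin family that reaches the membrane and gains its ligand preference only with a RAMP protein beside it. With Ramp2 or Ramp3 it binds adrenomedullin, with Ramp1 it binds calcitonin gene-related peptide, and loss of Adm, Calcrl or Ramp2 in the mouse damages blood and lymph vessels of the embryo. Nestin is an intermediate filament protein of dividing and young cells, found in the adult heart in part of the endothelium and in mural cells.

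Cells were grouped by clustering without the 7 genes, Kit, Ddr2, Ptprc or the other genes of the pathway lists, and the groups were named from marker genes, so each name means "like" that type. Capillary cells were blood endothelial cells with a UMI of Gpihbp1, which anchors lipoprotein lipase on capillary walls. They were split at a deposited value of 3 for Rbp7, a retinol-binding protein, which is about 19.1 UMIs per 10000. Rbp7 was higher still in arterial cells, at 3816, 4382 and 4759 CPM in cKit-/DDR2+, cKit+/DDR2- replicate 2 and cKit+/DDR2+/CD45-. The capillary cells of these libraries had 1153, 1639 and 1680 CPM. Endocardial cells carried Npr3, the clearance receptor of natriuretic peptides, lymphatic cells carried Prox1, the transcription factor of lymphatic identity, and arterial cells, fibroblasts, pericytes and macrophages were taken as clusters. The number of capillary cells in library order was 680, 116, 230, 525 and 73. Endocardial cells numbered 51, 166, 1363, 518 and 59. At least 50 lymphatic cells were present in both cKit+/DDR2- libraries (86 and 227) and in cKit+/DDR2+/CD45- (77). Fibroblasts reached 50 cells in cKit-/DDR2+ (878) and cKit+/DDR2- replicate 2 (150), pericytes only in cKit-/DDR2+ (71), and macrophages in cKit+/DDR2- replicate 2 (480) and cKit+/DDR2+/CD45+ (3164).

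A level is the UMIs of a gene summed over the cells of one kind in one library, as CPM of all UMIs of those cells, and its 95% interval (exact Poisson) covers counting error only. A difference is a log2 ratio of 2 levels after adding 1 CPM to each. Its interval is that of the ratio without the addition. A gene was compared where it had at least 50 CPM in 1 of the groups in every library compared, and was called higher or lower where the levels differed by at least 2-fold the same way in each library. No test was made, since 3 of the 4 sorts have a lone library and the genes were chosen with their levels known, and no p-value is given.

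**Figure D1:**
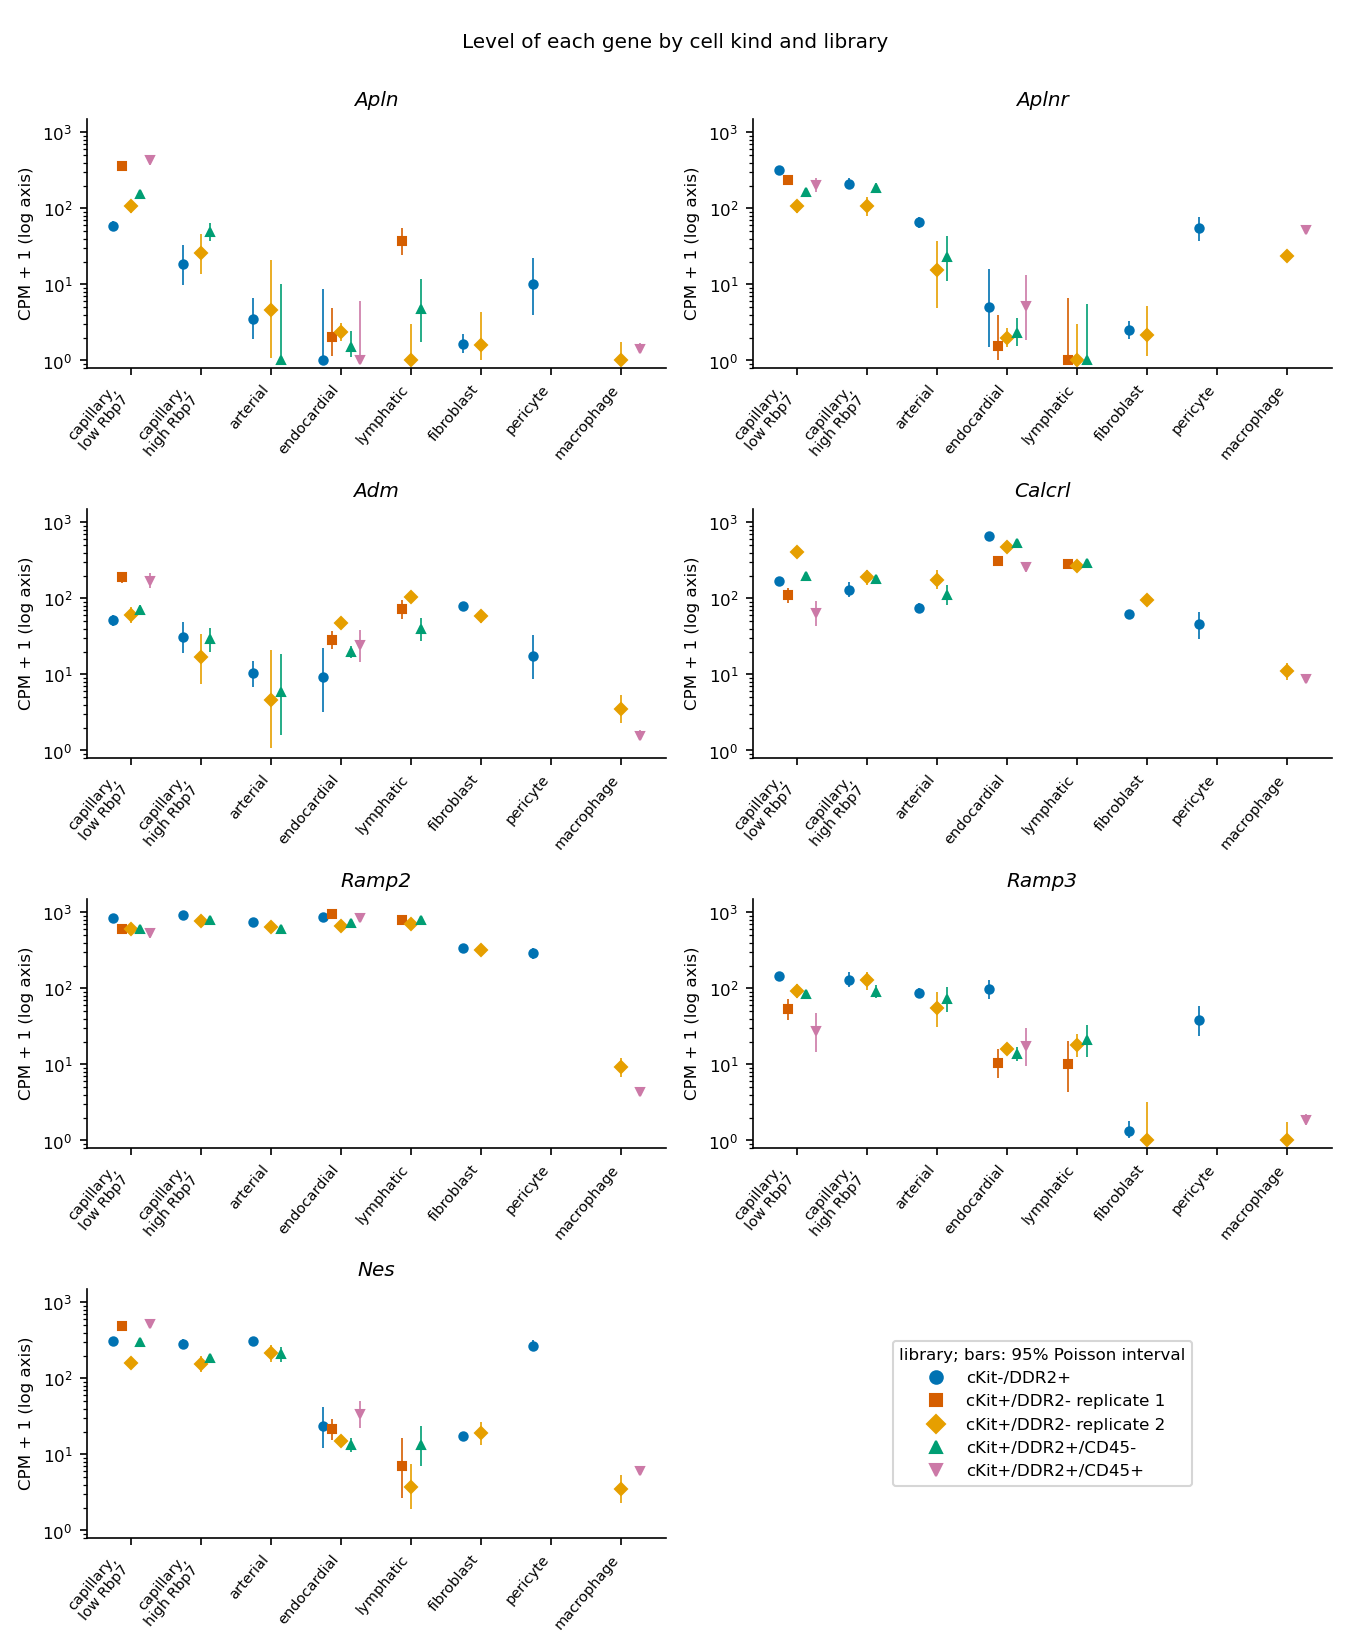
Levels of Apln, Aplnr, Adm, Calcrl, Ramp2, Ramp3 and Nes as CPM + 1 (log axis) in 8 kinds of cells, 1 panel a gene. Each point is 1 library with at least 50 cells of that kind and bars are 95% Poisson intervals. In capillary cells with low Rbp7, Apln stood at 57.3 CPM or more in all 5 libraries, against at most 1.36 CPM in endocardial cells. Ramp2 stood at 289 CPM or more in every kind but macrophages.

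The ligand Apln was found almost wholly in capillary cells. Its levels there were 50.004 CPM (95% interval 42.7 to 58.1), 335 (297 to 376), 82.1 (68.0 to 98.2), 121 (110 to 133) and 401 (347 to 461) in library order. The libraries fell into a lower range of 3 and a higher range of 2, and the 2 replicates of one sort lay in different ranges. Capillary cells held 169 of the 195 Apln UMIs of the whole cKit-/DDR2+ library (86.7%) and 91.0%, 82.6%, 97.8% and 87.5% of those in the other libraries, in order. In the same order of libraries, 12.8%, 53.4%, 15.2%, 21.0% and 42.5% of capillary cells had an Apln UMI. Apln was therefore a gene of a minority of capillary cells in 4 of the 5 libraries at this depth.

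Outside capillary cells Apln stood near the limit of counting. It was at 0, 1.06, 1.36, 0.498 and 0 CPM in endocardial cells. In cKit+/DDR2- replicate 2, 16 of the 18 endocardial UMIs came from 1 cell. The lymphatic levels were 36.0, 0 and 3.72 CPM in the 3 libraries with at least 50 such cells. Of the 24 lymphatic UMIs in cKit+/DDR2- replicate 1, 22 came from 1 cell of 86. Arterial cells, which border the capillaries, had 2.55, 3.59 and 0 CPM in the 3 libraries with at least 50 of them (cKit-/DDR2+, cKit+/DDR2- replicate 2, cKit+/DDR2+/CD45-). Fibroblasts had 0.631 and 0.589 CPM, and macrophages 0 CPM in cKit+/DDR2- replicate 2 (0 of 480 cells, which allows a share of cells with a UMI of up to 0.625%) and 0.417 CPM in cKit+/DDR2+/CD45+.

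Apln lies on chromosome X at 48025146 to 48034853 on the minus strand, and Adm on chromosome 7 at 110627657 to 110629820 on the plus strand (GRCm38.p6). The receptor genes Aplnr (85136360 to 85139923, plus strand) and Calcrl (84330626 to 84425405, minus strand) are both on chromosome 2. Ramp2 (101246334 to 101248250) and Ramp3 (6658506 to 6677478) are on chromosome 11 and Nes (87971093 to 87980451) on chromosome 3, each on the plus strand. Both ligands are known targets of the hypoxia-inducible factors, so the 250 bases before each start are shown, 5′ to 3′ on the strand of the gene. Capitals mark matches to the core of the hypoxia response element, ACGTG or GCGTG, searched on both strands.

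Apln promoter, chrX:48034854-48035103, minus strand: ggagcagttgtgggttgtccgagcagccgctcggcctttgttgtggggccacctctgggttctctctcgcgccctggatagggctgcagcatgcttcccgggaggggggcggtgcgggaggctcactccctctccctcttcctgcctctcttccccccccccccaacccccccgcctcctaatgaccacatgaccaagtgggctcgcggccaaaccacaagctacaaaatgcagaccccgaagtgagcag

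Adm promoter, chr7:110627407-110627656, plus strand: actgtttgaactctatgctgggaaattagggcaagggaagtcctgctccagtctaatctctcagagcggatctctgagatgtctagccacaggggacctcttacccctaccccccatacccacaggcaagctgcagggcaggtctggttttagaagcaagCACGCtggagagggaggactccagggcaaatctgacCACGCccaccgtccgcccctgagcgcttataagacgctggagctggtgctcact

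The Adm window held 2 matches, 90 and 54 bases before the start, both on the opposite strand as CACGC, and the Apln window held none. The Ramp3 window also held 2, and those of Calcrl and Nes none. The sequences are from RefSeq, whose promoter table matched 5 of the 7 genes and for Ramp3 and Calcrl uses a start inside the gene span given above. Of 32851 promoter windows of this length, 38.6% held at least 1 match and 16.7% at least 2. A match is a description of the letters and not a site.

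The receptor Aplnr, like Apln and Nes, was higher in capillary cells than in endocardium and lymphatics. Its capillary levels were 301 CPM (283 to 320), 234 (202 to 268), 106 (90.1 to 124), 172 (158 to 186) and 205 (167 to 249) in library order. The range over libraries, 106 to 301 CPM, was narrower than that of Apln, 50.004 to 401 CPM, and the highest level of Aplnr stood in the library with the lowest level of Apln. A UMI of Aplnr was found in 64.9%, 66.4%, 43.0%, 57.5% and 54.8% of capillary cells. At full depth more capillary cells thus showed the receptor than the ligand in each library. With each cell thinned to the same number of UMIs, Aplnr was found in 41.5%, 30.3%, 23.0%, 27.3% and 32.7% of capillary cells. Apln was then found in 7.56%, 29.4%, 7.83%, 9.24% and 38.2%. The thinned shares were nearly level in cKit+/DDR2- replicate 1 and reversed in cKit+/DDR2+/CD45+, with overlapping intervals in both. In endocardial cells Aplnr was at 4.12, 0.530, 0.985, 1.33 and 4.15 CPM. No Aplnr UMI was found in the lymphatic cells of 3 libraries (0 of 86, 0 of 227 and 0 of 77 cells, which allow shares of cells with a UMI of up to 3.49%, 1.32% and 3.90%).

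Macrophages carried Aplnr RNA with little RNA of the capillary genes beside it. Their level was 22.6 CPM (18.6 to 27.3) in cKit+/DDR2- replicate 2 and 50.5 CPM (48.3 to 52.8) in cKit+/DDR2+/CD45+, with a UMI in 17.9% and 39.6% of cells. The 24 macrophages of cKit+/DDR2- replicate 1 had 56.5 CPM (32.9 to 90.4). The capillary gene Gpihbp1 stood at 1.04 and 3.62 CPM in the macrophages of the 2 larger groups, and Apln at 0 and 0.417 CPM. In cKit+/DDR2- replicate 2 the ratio of Aplnr to Gpihbp1 was 21.8 in macrophages against 0.0659 in capillary cells. After each cell was thinned to 2000 UMIs, 4.81% and 9.84% of macrophages showed an Aplnr UMI. The level in cKit+/DDR2+/CD45+ exceeded that in cKit+/DDR2- replicate 2 by 1.13 on the log2 scale (0.88 to 1.45), with 1 library on each side.

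Pericytes and arterial cells lay between these extremes for Aplnr. The 71 pericytes of cKit-/DDR2+ had 53.7 CPM (35.9 to 77.1). The same pericytes carried Gpihbp1 at 622 CPM and Rbp7 at 969.6 CPM beside the pericyte gene Rgs5 at 7997 CPM. The part of this endothelial RNA in their Aplnr, Nes and Ramp3 levels was not tested. Arterial cells had 64.5, 14.3 and 22.0 CPM in their 3 libraries. Fibroblasts had 1.498 and 1.18 CPM. Ordered by the median over libraries, Aplnr ran from capillary cells with low Rbp7 (204 CPM) and high Rbp7 (187) through pericytes (53.7), macrophages (36.6) and arterial cells (22.0) to fibroblasts (1.34), endocardium (1.33) and lymphatics (0). Neighbours in this order overlapped in range between the capillary groups, between macrophages and arterial cells, and between fibroblasts and endocardium, and the pericyte interval included the higher macrophage level.

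Adm, the second ligand, was spread over more kinds of cells than Apln. Its capillary levels were 46.7 CPM (39.7 to 54.6), 179 (152 to 210), 46.9 (36.4 to 59.5), 56.2 (48.8 to 64.4) and 160 (126 to 199) in library order. The same 2 libraries that were high for Apln were high for Adm, cKit+/DDR2- replicate 1 and cKit+/DDR2+/CD45+, and the other 3 overlapped in their intervals. Fibroblasts had 77.3 CPM (72.5 to 82.3) in cKit-/DDR2+ and 57.7 (46.9 to 70.3) in cKit+/DDR2- replicate 2, and held 81.2% of the Adm UMIs of the cKit-/DDR2+ library. Their UMIs were uneven between cells: 26.8% of cells had any, with a median of 2 and a maximum of 54 UMIs in those that did.

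Lymphatic cells had Adm levels of 70.6, 103 and 38.5 CPM in the same 3 libraries as before, in 15.1%, 16.7% and 15.6% of cells. In endocardial cells the levels were 8.25, 27.6, 45.8, 18.9 and 23.5 CPM in library order. Endocardial cells made up 45.1% of the cells of cKit+/DDR2- replicate 2 and held 60.2% of that library's Adm UMIs. In cKit+/DDR2- replicate 1 and cKit+/DDR2+/CD45- they made up 38.1% and 39.0% of cells and held 19.3% and 30.5% of Adm UMIs. Arterial cells had 9.34, 3.59 and 4.89 CPM and macrophages 2.49 and 0.573 CPM. By median, lymphatics (70.6), low-Rbp7 capillary cells (69.1) and fibroblasts (67.5) were highest and overlapped, followed by high-Rbp7 capillary cells (27.8) and endocardium (23.5), which also overlapped. Adm lies within a gene on the opposite strand, Gm28863. Whether the counting used the strand is not given in the sources used here, so reads of the 2 genes may not be told apart.

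Within the endocardium Adm differed between the 2 larger clusters; another, led by Postn, held 49 cells and is not given. Cells of the cluster led by Nrg1, the neuregulin ligand of the endocardium, had 4.57, 33.3, 59.2, 24.4 and 26.9 CPM. The cluster led by Igfbp5 had 10.1, 5.68, 8.59, 7.50 and 18.0 CPM. The Nrg1 cluster was higher in 4 of the 5 libraries, and cKit-/DDR2+ with 23 and 20 cells was the exception. In the same clusters Calcrl was the reverse, with 608, 285, 425, 510.2 and 242 CPM in the Nrg1 cluster and 802, 417, 609.9, 627 and 274 CPM in the Igfbp5 cluster, higher in the latter in all 5 libraries.

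Calcrl, the receptor of adrenomedullin, was highest by median in the endocardium among the kinds of cells. Endocardial levels were 664 CPM (593 to 740.4), 307 (282 to 333), 472 (460.0 to 483), 542 (524 to 561) and 254 (219 to 294) in library order. Capillary levels were 162 (148 to 176), 105 (84.3 to 129), 339 (310.1 to 371), 191 (177 to 206) and 63.4 (43.1 to 90.0). Endocardial cells were thus above capillary cells in each library, by log2 differences of 2.03, 1.54, 0.47, 1.499 and 1.99 (mean 1.51, SD 0.63, n = 5). In cKit+/DDR2- replicate 2 the difference was under 2-fold, so Calcrl was not called. A UMI of Calcrl was found in 98.04%, 83.1%, 86.9%, 91.9% and 79.7% of endocardial cells and in 44.3%, 37.1%, 55.7%, 53.0% and 31.5% of capillary cells. Endocardial cells were deeper, with median UMIs of 9349 to 12230 against 4681 to 6964. At 2000 UMIs a cell the shares were 74.5%, 36.7%, 50.6%, 54.4% and 37.3% against 25.7%, 15.6%, 35.0%, 26.9% and 16.4%, with the endocardium above in each library.

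Lymphatic cells had Calcrl at 282, 267 and 293 CPM, nearly level over the 3 libraries. Against the capillary cells of the same libraries this was a log2 difference of 1.42, -0.35 and 0.61, so the order of the 2 kinds depended on the library. Arterial cells had 73.4, 176 and 110.0 CPM, fibroblasts 62.2 and 93.0 CPM, pericytes 44.4 CPM and macrophages 9.95 and 7.60 CPM. Calcrl also differed between the clusters that hold the capillary cells. The cluster led by Serpina1b, a protease inhibitor, made up 17.4%, 2.59%, 27.0% and 6.86% of capillary cells in the first 4 libraries, and its Calcrl levels were 369, 782 and 615 CPM in cKit-/DDR2+, cKit+/DDR2- replicate 2 and cKit+/DDR2+/CD45-. In cKit+/DDR2- replicate 2 and cKit+/DDR2+/CD45- this lay above the endocardial levels of 472 and 542 CPM. In cKit-/DDR2+ it lay below the endocardial 664 CPM. Serpina1b was also a leading gene of the endocardial cluster led by Igfbp5. In the Serpina1b cluster 10 of 11 capillary markers passed the naming rule, but 0 were among its 10 leading genes. Predicted doublets made up 3.54% of its cells. The part of endocardial cells or RNA in its Calcrl level was not tested.

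Ramp2, the partner that makes Calcrl an adrenomedullin receptor, was even across the endothelial kinds. Its levels were 863, 616, 656, 665 and 528 CPM in capillary cells and 880.3, 947, 669.8, 719.9 and 834 CPM in endocardial cells. Lymphatic levels were 791, 706 and 804 CPM and arterial levels 736, 635 and 606 CPM. The 4 endothelial kinds overlapped in range. Fibroblasts had 334 and 314 CPM and pericytes 289 CPM, and macrophages 8.29 and 3.38 CPM, the only kind in which Ramp2 was nearly missing.

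Ramp3, the alternative partner, was highest by median in capillary and arterial cells. Capillary levels were 143 CPM (130.2 to 156), 54.3 (39.7 to 72.4), 103 (87.0 to 121), 84.7 (75.6 to 94.7) and 38.9 (23.4 to 60.7), and arterial levels 86.6, 53.8 and 70.9 CPM. Endocardial levels were 96.9, 9.54, 15.1, 12.6 and 16.6 CPM. The endocardial cells of cKit-/DDR2+ stood apart, with an interval of 71.2 to 129 that lay above those of the other 4 libraries. Those 51 cells also carried fibroblast marker RNA at a summed 5531 CPM against 2575 to 3481 CPM in the other endocardial groups. Their summed capillary marker RNA was 6001 CPM against 4059 to 4581 CPM, and Rbp7 stood at 92.8 against 9.54 to 40.5 CPM. Gpihbp1, at 35.0 CPM, lay within the 24.6 to 49.8 CPM of the other groups. The part of RNA from other kinds in the Ramp3 level was not tested. Lymphatic cells had Ramp3 at 9.01, 17.0 and 19.9 CPM and fibroblasts at 0.315 and 0 CPM. The 71 pericytes of cKit-/DDR2+, which also carried the endothelial RNA given above, had 37.0 CPM from 20 UMIs. The start of Ramp3 overlaps a pseudogene on the opposite strand, Gm11978.

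**Figure D2:**
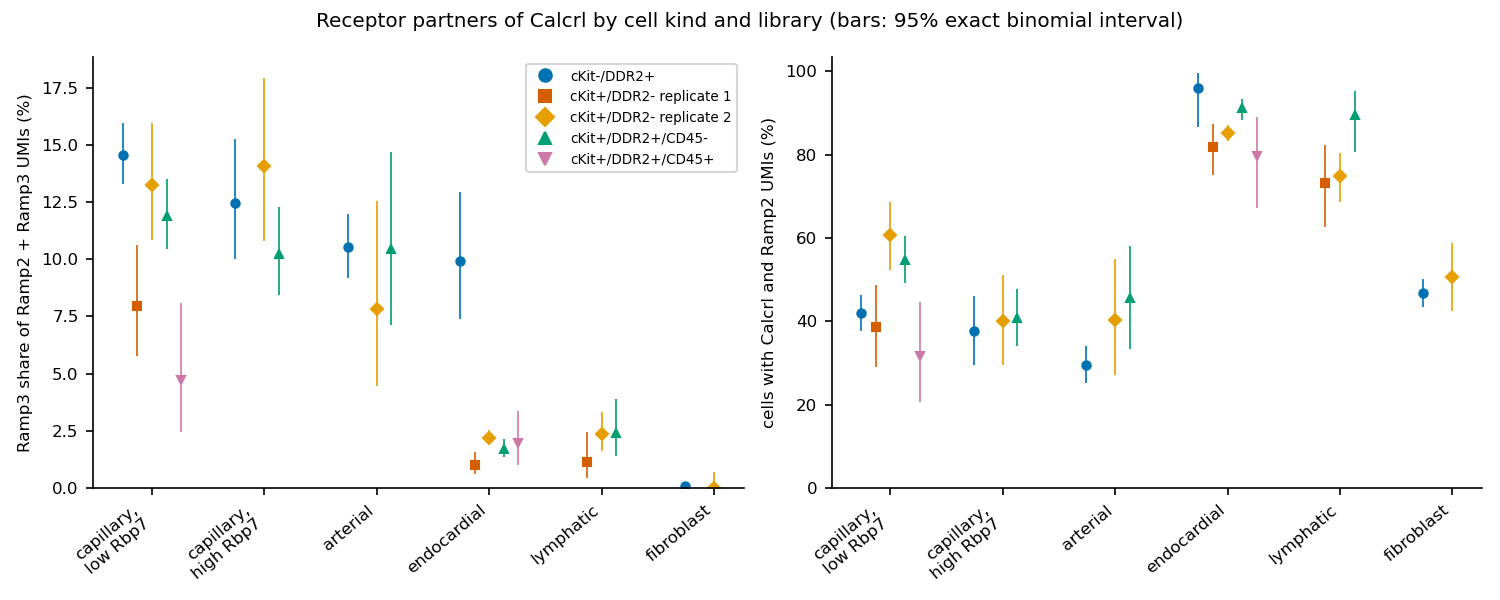
Left, Ramp3 UMIs as a percent of Ramp2 plus Ramp3 UMIs. Right, percent of cells with UMIs of both Calcrl and Ramp2. Each point is 1 library with at least 50 cells of the kind and bars are 95% exact binomial intervals. Ramp3 shares lie between 4.72% and 14.6% in the capillary groups, and at 2.41% or less in endocardial and lymphatic cells except the cKit-/DDR2+ endocardial cells, at 9.92%.

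The balance of the RAMP partners thus differed between kinds of endothelium. Ramp3 made up 14.2% (13.03 to 15.4), 8.10% (5.99 to 10.7), 13.5% (11.6 to 15.7), 11.3% (10.1 to 12.5) and 6.86% (4.18 to 10.5) of Ramp2 plus Ramp3 UMIs in capillary cells. In endocardial cells the shares were 9.92%, 0.997%, 2.20%, 1.72% and 1.95%, below the capillary share of the same library in all 5. Lymphatic shares were 1.13%, 2.35% and 2.41%, fibroblast shares 0.0943% and 0%, and the pericyte share 11.4%. The UMIs are tags of 3' ends, which do not grow with transcript length, but how well each gene's end is captured is unknown, so the shares compare kinds of cells rather than the 2 proteins. UMIs of both Calcrl and Ramp2 were found in 96.1%, 81.9%, 85.3%, 91.1% and 79.7% of endocardial cells and in 41.0%, 36.2%, 53.0%, 49.1% and 30.1% of capillary cells. Ramp1, the partner for calcitonin gene-related peptide, stood at 0.296 CPM in the capillary cells of cKit-/DDR2+ and at 32.1 and 42.0 CPM in macrophages, where Calcrl was at 9.95 and 7.60 CPM.

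Nes was a gene of capillary cells, arterial cells and pericytes. Its capillary levels were 305 CPM (286 to 324), 466 (421 to 514), 158 (138 to 180), 262 (246 to 279) and 499 (439 to 566). Arterial cells had 308, 215 and 205 CPM, and the 71 pericytes 268 CPM (226 to 316). Endocardial cells had 22.7, 20.7, 14.2, 12.3 and 33.2 CPM, fibroblasts 16.3 and 18.3, lymphatics 6.01, 2.74 and 12.4 and macrophages 2.49 and 4.999 CPM. Unlike Apln, Nes did not separate capillaries from arteries: their ranges overlapped, and in cKit-/DDR2+ the intervals of the levels, 286 to 324 and 286 to 331, were nearly the same.

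Between endocardial and capillary cells of the same library, 413 of 2981 genes (13.9%) were called, 210 higher and 203 lower, and the median of all genes was -0.07 on the log2 scale. Of the members, 5 could be compared in all 5 libraries and 3 were called lower: Apln, Aplnr and Nes. The differences for Aplnr were -5.88, -7.26, -5.76, -6.21 and -5.32 (mean -6.09, SD 0.73, n = 5). For Nes they were -3.69, -4.43, -3.38, -4.31 and -3.87 (mean -3.94). For Apln they were -7.35, -5.14 and -6.35 in the 3 libraries with endocardial UMIs. In cKit-/DDR2+ and cKit+/DDR2+/CD45+, where endocardial cells had none, Apln was at least 8.09-fold and at least 96.7-fold lower, taking 3 counts as the floor in each library. Ramp2 differed by 0.03, 0.62, 0.03, 0.11 and 0.66. Adm and Ramp3 fell under 50 CPM in both groups of some library and were not compared by the rule, with differences of -2.37, -2.66, -0.03, -1.52 and -2.71 for Adm and -0.55, -2.39, -2.69, -2.66 and -1.18 for Ramp3.

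Between lymphatic and capillary cells 592 of 3340 genes (17.7%) were called in the 3 libraries with enough of both. All 7 members could be compared and 4 were called lower: Apln, Aplnr, Ramp3 and Nes. For Aplnr, with no lymphatic UMI, the capillary level was at least 51.9-fold, 64.6-fold and 46.1-fold higher in cKit+/DDR2- replicates 1 and 2 and cKit+/DDR2+/CD45-. Ramp3 differed by -2.47, -2.53 and -2.04 and Nes by -6.06, -5.41 and -4.29 on the log2 scale. Adm (-1.33, 1.11 and -0.54) changed sign between libraries, and Ramp2 (0.36, 0.11 and 0.27) was nearly level. The lymphatic cells also carried Gpihbp1 at 484 to 646 CPM, although Aplnr was at 0 in the same cells.

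Apln was higher in capillary cells with low Rbp7 than in those with high Rbp7. In cells with low Rbp7, Apln stood at 57.3, 106 and 154 CPM in the 3 libraries with at least 50 cells of both groups, cKit-/DDR2+, cKit+/DDR2- replicate 2 and cKit+/DDR2+/CD45-. In cells with high Rbp7 of the same libraries it stood at 17.6, 25.3 and 48.7 CPM. The 2 groups did not overlap across these libraries. The low-Rbp7 cells of cKit+/DDR2- replicate 1 and cKit+/DDR2+/CD45+ had 359 and 430 CPM, and their high-Rbp7 groups of 15 and 10 cells were too few to give a level. The log2 differences within the 3 libraries were 1.65 (0.82 to 2.73), 2.03 (1.18 to 3.12) and 1.64 (1.25 to 2.09), with a mean of 1.77 (SD 0.23, n = 3). With the cells split at 3 Rbp7 UMIs instead, the mean was 0.79 and the call was lost. Apln was the 1 member called among 7 compared, where 7 of 2910 genes (0.241%) were called in all, 6 higher and 1 lower in low-Rbp7 cells. The lower gene was Rbp7, by which the cells were split, and the other higher ones were Vwf, Vcam1, Prss23, Tmem176b and Rasa4, named after their values were seen. Vwf and Vcam1, the blood-clotting carrier and an adhesion molecule of venous endothelium, differed by a mean of 2.80 and 2.26. Summed RNA of the endocardial markers, which include Vwf, was 79.5, 963 and 170 CPM with low Rbp7 against 30.5, 115 and 60.0 CPM with high Rbp7. The part of blood endothelium other than capillaries in the low-Rbp7 or the high-Rbp7 group was not tested.

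Adm was higher with low Rbp7 in each of the 3 libraries but missed the 2-fold rule in cKit-/DDR2+. Its levels were 50.4, 60.1 and 69.1 CPM with low Rbp7 and 30.5, 16.1 and 27.8 CPM with high Rbp7, which gives differences of 0.71, 1.84 and 1.28. Their mean of 1.28 was 0.0057 with the split at 3 UMIs. Ramp2 leaned the other way, by -0.10, -0.34 and -0.36. Aplnr (0.60, 0.01 and -0.18), Ramp3 (0.16, -0.44 and -0.12) and Nes (0.12, 0.05 and 0.70) had no shared size in the 3 libraries, and Calcrl differed by 0.38, 1.10 and 0.15. Cells with low Rbp7 were deeper, with median UMIs of 4821, 6825 and 7415 against 4202, 4725 and 5110. Cells just below the split, with a deposited Rbp7 value of 2.5 to 3, had Apln at 10.1, 67.9 and 47.4 CPM, and those just above it, at 3 to 3.5, had 30.5, 36.7 and 79.1 CPM. Near the split the order of the groups was therefore reversed in cKit-/DDR2+ and cKit+/DDR2+/CD45-.

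**Figure D3:**
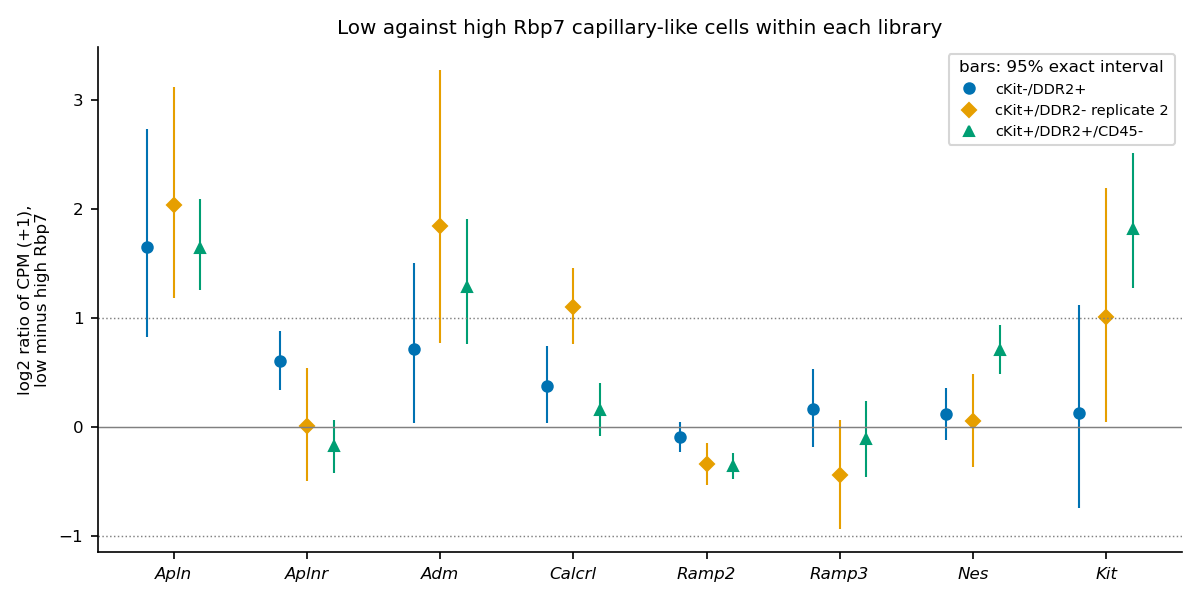
Log2 ratio of CPM (+1) between capillary cells with low and with high Rbp7 for the 7 members and Kit, in the 3 libraries with at least 50 cells of both. Lines are 95% exact conditional intervals of the ratio and dotted lines mark 2-fold. Apln lies above 2-fold in all 3 libraries (1.65, 2.03 and 1.64), and Ramp2 lies just below 0.

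Apln was highest in 1 of the 4 clusters that held the capillary cells. Although Apln was kept out of the clustering, this cluster was led by Apln, with the imprinted gene Mest, the actin-bundling gene Fscn1 and the protocadherin Pcdh17. It held 29, 51, 28, 72 and 31 cells, or 4.26%, 44.0%, 12.2%, 13.7% and 42.5% of capillary cells in library order. Its Apln levels were 172, 482, 339.7, 393 and 569 CPM. In the cluster led by Car4, the carbonic anhydrase of capillaries, Apln stood at 42.6, 194, 33.6, 40.2 and 44.7 CPM. The share of the Apln-led cluster was largest in the 2 libraries with the highest capillary Apln.

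The other members also differed between these clusters, as description of cells grouped on their own RNA. In the Apln-led cluster Adm was at 113, 204, 91.3, 136 and 216 CPM, against 50.9, 171, 44.3, 37.6 and 44.7 CPM in the Car4 cluster, higher in all 5 libraries. Nes was at 628, 596, 318, 464 and 620.4 CPM against 329, 318, 192, 209.7 and 216 CPM. Ramp3 was lower, at 31.6, 15.6, 51.1, 27.1 and 14.99 CPM against 136, 103, 115, 98.1 and 104 CPM, and so was Ramp2, at 411, 473, 402, 453 and 414 CPM against 903, 871, 713, 730.2 and 864 CPM. Aplnr was present in the Apln-led cluster, at 239.6, 236, 106, 148 and 204 CPM. Over all capillary cells, which include this cluster, it was at 301, 234, 106, 172 and 205 CPM. The cluster thus held RNA of Apln and of its receptor, but Aplnr was near or below its level over all capillary cells. Both RAMP partners of the Adm receptor stood below their levels in the Car4 cluster. Kit was at 58.8, 233, 139, 154 and 132 CPM in the Apln-led cluster and at 26.5, 58.9, 29.0, 41.4 and 37.2 CPM in the Car4 cluster.

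The Serpina1b cluster had lower Adm, Nes and Kit than the Car4 cluster. In the same 3 libraries as for Calcrl above, Adm stood at 12.3, 26.8 and 5.57 CPM, Nes at 149.8, 28.9 and 114 CPM and Kit at 1.36, 2.06 and 5.57 CPM. Its Aplnr level was 309, 78.4 and 100.2 CPM. The cluster led by Rflnb was shallow, with median UMIs of 1081 to 2018, and is shown only in the plot of cluster levels.

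**Figure D4:**
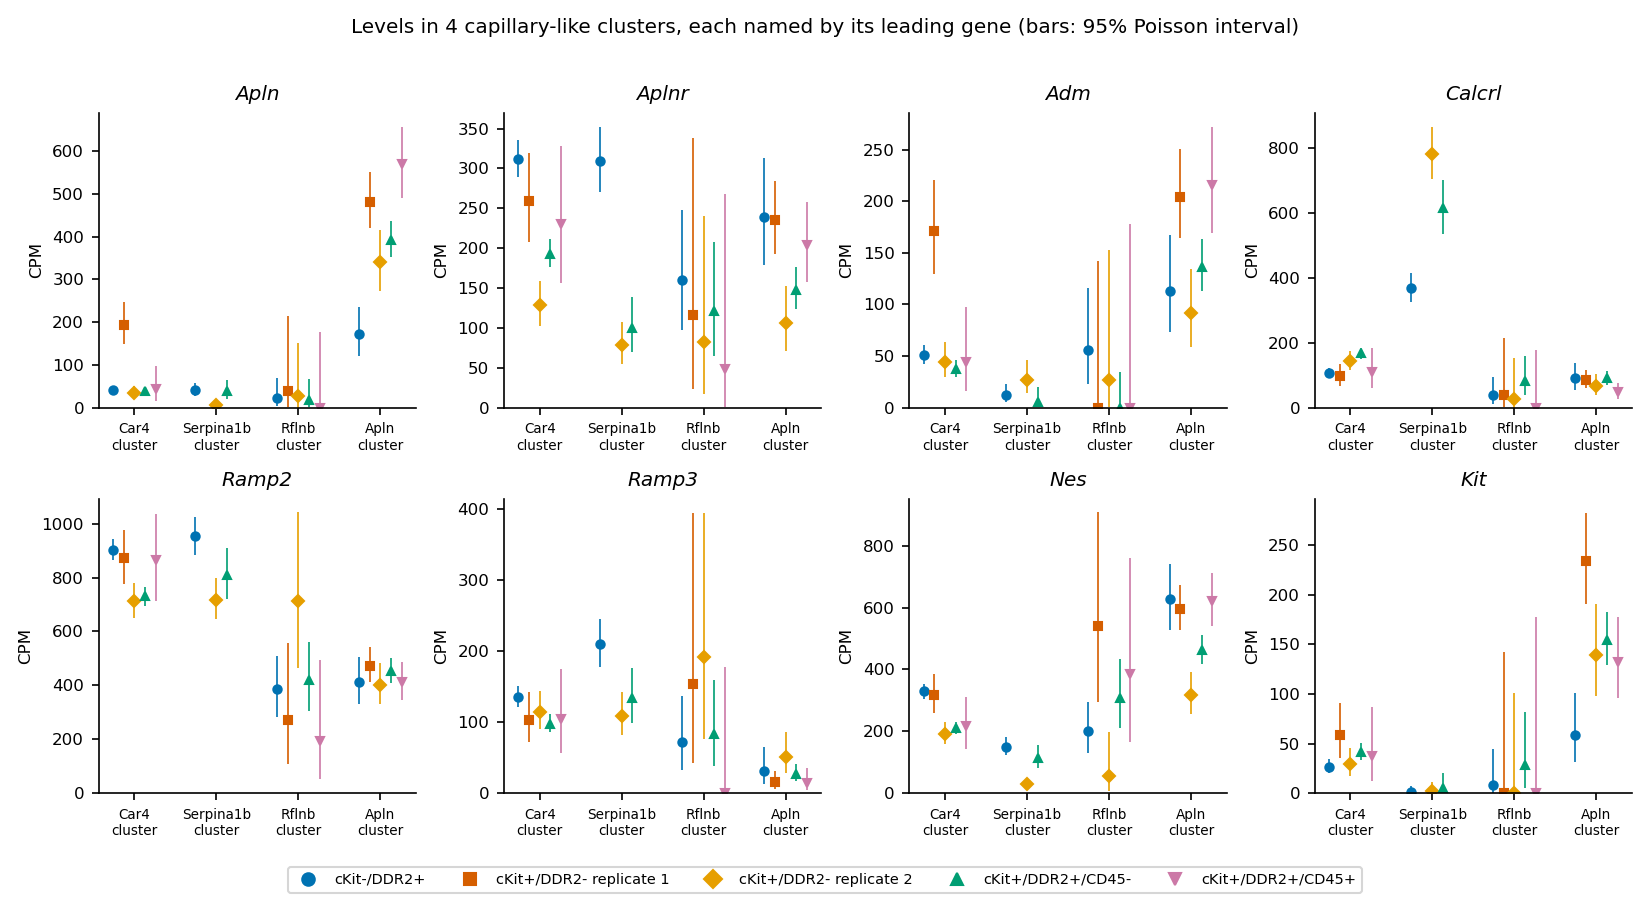
Levels (CPM) of the 7 members and Kit in the 4 clusters that hold the capillary cells, each labelled with its leading gene, in library colours; only groups of at least 10 cells are drawn. Bars are 95% Poisson intervals. In the Apln cluster, Apln, Adm, Nes and Kit stand above the Car4 cluster in all 5 libraries and Ramp2 and Ramp3 below it.

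Cells with Apln were compared with the other capillary cells for Kit, the receptor on which the cells had been sorted, and for Aplnr. An Apln UMI was found in 87, 62, 35, 110 and 31 capillary cells. Of these, 18.4% (10.9 to 28.1), 64.5% (51.3 to 76.3), 45.7% (28.8 to 63.4), 56.4% (46.6 to 65.8) and 67.7% (48.6 to 83.3) also had a Kit UMI. Of the capillary cells without Apln, 7.59%, 16.7%, 7.69%, 12.5% and 7.14% did. The mean difference was 40.2 percentage points. Seen from Kit, 26.2%, 81.6%, 51.6%, 54.4% and 87.5% of the Kit-positive capillary cells had an Apln UMI, so in 4 of the libraries more than 50% of them did. The library sorted against surface cKit was the one with the lowest overlap.

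Detection rises with depth, and cells with an Apln UMI were deeper, with median UMIs of 6244, 8325.5, 7893, 10082 and 9634 against 4506, 5810.5, 5440, 5754 and 3639. Thinned to 2000 UMIs a cell, the shares with Kit were 6.67%, 43.8%, 23.5%, 25% and 19.0% of Apln-positive cells and 4%, 9.09%, 4%, 7.18% and 14.7% of the rest, a mean difference of 15.8 points. The difference kept its direction in all 5 libraries, with intervals that overlap in cKit-/DDR2+ (1.40 to 18.3 and 2.52 to 5.99), in cKit+/DDR2- replicate 2 (6.81 to 49.9 and 1.74 to 7.73) and in cKit+/DDR2+/CD45+ (5.45 to 41.9 and 4.95 to 31.1). The level of Kit, which sums UMIs over cells, was 40.9, 213, 106, 135 and 129 CPM in cells with Apln and 18.8, 35.3, 21.2, 30.6 and 46.6 CPM in those without. These are log2 differences of 1.08 (0.35 to 1.85), 2.56 (1.70 to 3.63), 2.27 (1.53 to 3.14), 2.10 (1.73 to 2.55) and 1.45 (0.36 to 2.78).

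Aplnr did not go with Apln in this way. At full depth 80.5%, 75.8%, 51.4%, 77.3% and 77.4% of the cells with Apln had an Aplnr UMI against 62.6%, 55.6%, 41.5%, 52.3% and 38.1% of the rest, a mean difference of 22.5 points. After thinning the shares were 42.2%, 25%, 17.6%, 29.5% and 42.9% against 41.5%, 32.5%, 23.5%, 27.1% and 26.5%, a mean difference of 1.26 points with the sign changing between libraries. The levels of Aplnr differed by -0.07 (-0.32 to 0.18), 0.42 (-0.03 to 0.88), 0.06 (-0.53 to 0.61), -0.10 (-0.35 to 0.15) and -0.18 (-0.79 to 0.44) on the log2 scale. Each of these intervals includes 0. Cells with both ligand and receptor numbered 70, 47, 18, 85 and 24, or 10.3%, 40.5%, 7.83%, 16.2% and 32.9% of capillary cells.

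At full depth Adm, Nes, Ramp2 and Ramp3 differed between capillary cells with and without Apln in the direction seen between the Apln-led and Car4 clusters. Adm was higher in cells with Apln by log2 differences of 1.19, 1.77, 2.04, 1.92 and 1.86, and Nes by 0.53, 0.64, 1.52, 0.71 and 1.03. Lower values were seen for Ramp3 (-0.35, -1.39, -1.03, -0.95 and -2.30), Ramp2 (-0.28, -0.28, -0.47, -0.45 and -0.34) and Calcrl (-0.46, -0.74, -2.22, -0.42 and -0.96). For each of these 5 genes the sign was the same in all 5 libraries. The cells are not replicates, and all genes of a cell share its UMI total.

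**Figure D5:**
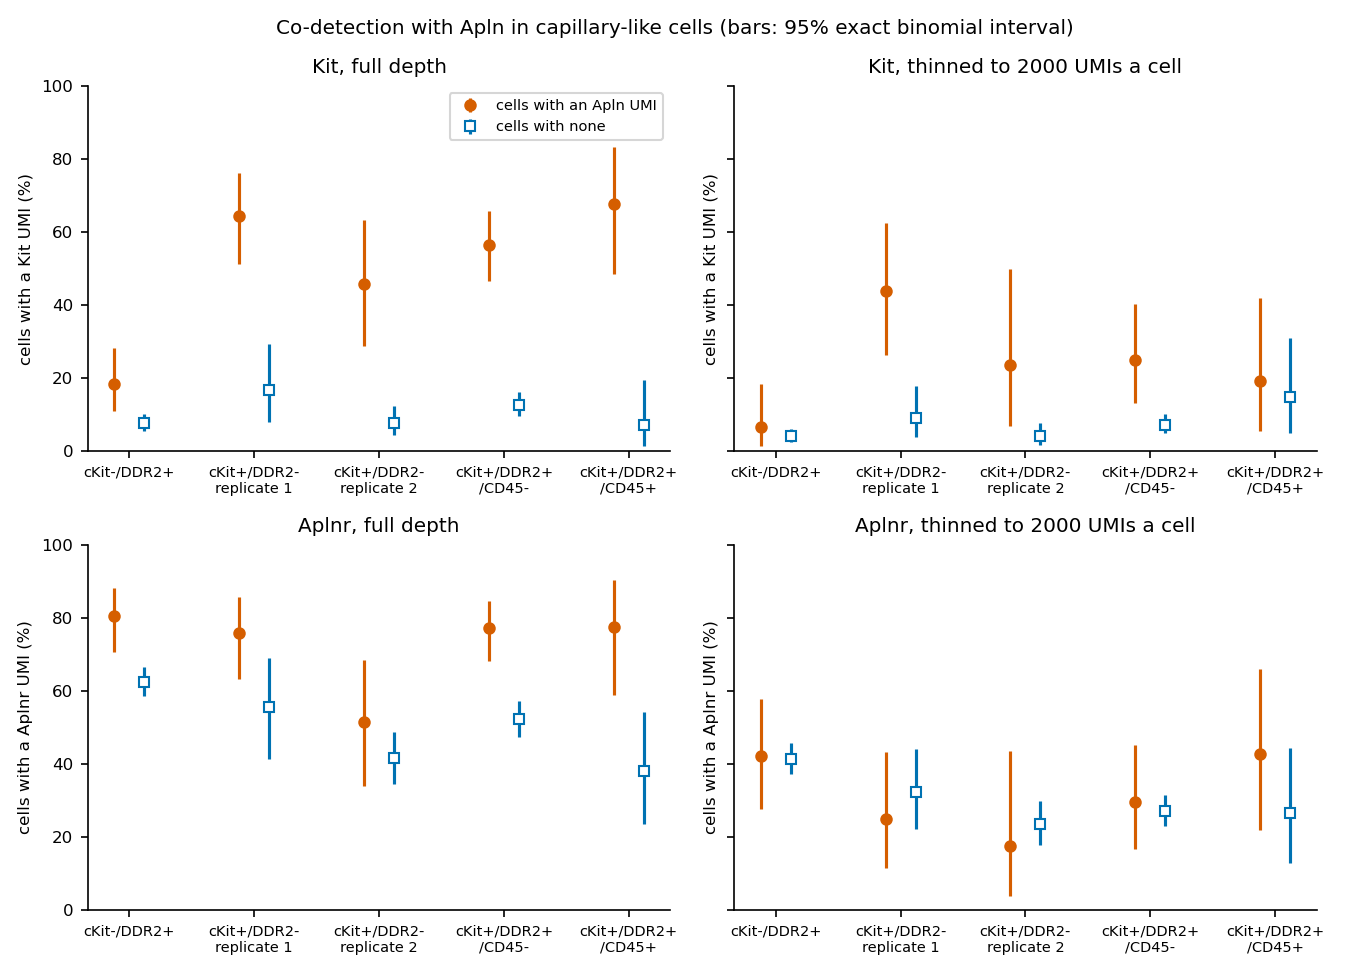
Percent of capillary cells with a Kit UMI (top) or an Aplnr UMI (bottom), among cells with an Apln UMI (filled circles) and without (open squares), in each library, at full depth (left) and thinned to 2000 UMIs a cell (right). Bars are 95% exact binomial intervals. For Kit the filled circles lie above the squares in all 5 libraries at both depths, by a mean of 40.2 points at full depth and 15.8 points thinned; for Aplnr the mean difference is 22.5 points and 1.26 points.

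Differences between sorts were read within capillary cells. The pair with the most capillary cells was cKit+/DDR2+/CD45- and cKit-/DDR2+, in which 73 of 3312 genes (2.2%) were called and the median of all genes was -0.07. Apln was the 1 member called of 7, at 121 against 50.004 CPM, a log2 difference of 1.26 (1.01 to 1.54). As a mean over cells the difference was 0.76, under 2-fold. The Apln-led cluster made up 13.7% against 4.26% of these cells, and its part in the difference was not tested. Within that cluster Apln stood at 393 against 172 CPM, and within the Car4 cluster at 40.2 against 42.6 CPM. Within low-Rbp7 cells the difference was 1.41 and within high-Rbp7 cells 1.42 (0.52 to 2.55). Aplnr differed the other way by -0.81 (-0.96 to -0.67) and Ramp3 by -0.74 (-0.96 to -0.54), under 2-fold. Kit differed by 1.46 (1.12 to 1.89), the direction of the gate. These 2 libraries also lie on either side of the split in Xist, Ddx3y and Gm42418, and Apln itself is on chromosome X. The part of this split in the differences was not tested.

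The other libraries with high Apln were set against the same cKit-/DDR2+ library. In cKit+/DDR2- replicate 1, where 150 of 3443 genes (4.36%) were called, Apln (2.72, 2.46 to 3.03) and Adm (1.92, 1.61 to 2.27) were higher and Ramp3 (-1.38, -1.86 to -0.96) was lower. In cKit+/DDR2+/CD45+, where 266 of 3474 genes (7.66%) were called, Apln (2.98, 2.70 to 3.31) and Adm (1.75, 1.36 to 2.17) were higher and Ramp3 (-1.85, -2.62 to -1.22) and Calcrl (-1.34, -1.92 to -0.83) lower. These comparisons share the cKit-/DDR2+ library and are not independent of each other. The capillary cells of cKit+/DDR2+/CD45+ also carried macrophage marker RNA at a summed 1029 CPM, against 3.26 to 144 CPM in the other capillary groups and 16423 CPM in that library's macrophages. The capillary cells of cKit-/DDR2+ carried fibroblast marker RNA at 881 CPM against 9.44 to 69.7 CPM elsewhere. The part of either in the differences was not tested.

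The cKit+/DDR2- replicates also differed from each other. Between replicate 1 and replicate 2, 271 of 3464 genes (7.82%) were called, and of the members 4 were higher and 1 lower in replicate 1. Apln differed by 2.02 (1.71 to 2.35), Adm by 1.91 (1.51 to 2.37), Nes by 1.55 (1.32 to 1.80), Aplnr by 1.13 (0.83 to 1.45) and Calcrl by -1.68 (-2.04 to -1.36). The 2 libraries that both hold Xist RNA, cKit+/DDR2+/CD45- and cKit+/DDR2- replicate 2, were closer: 54 of 3235 genes (1.67%) and none of the 7 members were called, with Apln at 121 against 82.1 CPM and a difference of 0.55 (0.26 to 0.86). Replicate 2 also differed from cKit-/DDR2+, by -1.49 (-1.76 to -1.26) for Aplnr, 1.07 (0.89 to 1.25) for Calcrl, -0.94 for Nes and 0.70 for Apln. Sort, library and sex by Xist and Ddx3y cannot be told apart here. With the 190 shared-barcode cells kept, 90 capillary cells of cKit+/DDR2+/CD45+ had Apln at 387 CPM against 401 CPM for the 73 cells without them.

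Among the other genes of the pathways, those that process apelin were not confined to capillary cells. Of the 7 genes of the apelin list, 3 could be compared between low- and high-Rbp7 cells and 1, Apln itself, was called (0.241% of all genes were). In endocardium 2 of 3 were lower, the members Apln and Aplnr, where 6.81% of all genes were. Furin, a protease that cuts the apelin precursor, had a median of 46.2 CPM in capillary and 46.4 in endocardial cells. Prcp, a carboxypeptidase that acts on apelin, had medians of 80.7 CPM in capillary cells, 36.8 in endocardium and 110.2 in macrophages. Mme, or neprilysin, which degrades apelin, was a fibroblast gene with a median of 70.5 CPM there and 0.543 in capillary cells. Apela, the second ligand of Aplnr, was in none of the tables.

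Of the 13 genes of the adrenomedullin list, 6 could be compared between endocardium and capillary cells and 3 were higher in endocardium. Of all genes 7.04% were higher there, and the median was 1.79 on the log2 scale for the list against -0.07 for all genes. Among the 3 were Pam, the enzyme that amidates adrenomedullin to its active form, and Gpr182, a receptor related to Ackr3. Their medians were 242 and 282 CPM in endocardial cells and 58.0 and 27.4 CPM in capillary cells. Ackr3, a receptor that takes up adrenomedullin, had medians of 159 CPM in capillary, 89.9 in endocardial and 111 in lymphatic cells and was highest in fibroblasts, at 312 CPM. None of the 5 genes of this list that could be compared was called between low- and high-Rbp7 cells, against 0.241% of all genes.

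The list of 17 tip cell genes was compared in the same ways. Of those that could be compared, 9 of 16 were higher in cKit+/DDR2- replicate 1 than in cKit-/DDR2+ (list median 1.06), 9 of 15 in cKit+/DDR2+/CD45+ (1.41), and 10 of 16 in cKit+/DDR2- replicate 1 against replicate 2 (1.41), where the medians of all genes were 0.00, -0.04 and 0.09. Of all genes compared, 1.98%, 3.45% and 3.81% were called higher in these pairs. Between cKit+/DDR2+/CD45- and cKit-/DDR2+ none of 10 was called (0.13), and none of 9 between low and high Rbp7 (-0.08). Of all genes 2.2% and 0.241% were called in these comparisons. In endocardium 6 of 7 were lower, against 6.81% of all genes. Among them were Col4a1, a basement membrane collagen, with medians of 112 against 1686 CPM, and Fscn1, with 18.0 against 246 CPM. This list was chosen with results of these data known. In the hypoxia list none of 10 genes was called between low and high Rbp7 (median -0.02), against 0.241% of all genes. None was called in cKit+/DDR2- replicate 1 or cKit+/DDR2+/CD45+ against cKit-/DDR2+, where 4.36% and 7.66% of all genes were. The list medians there were -0.26 and -0.56. In cKit+/DDR2+/CD45- against cKit-/DDR2+ 1 of 10 was lower (1.27% of all genes). In cKit+/DDR2+/CD45+ against cKit+/DDR2- replicate 2, 2 of 10 were lower (5.28%). In lymphatics 4 of 10 were lower and 1 higher (7.04% and 10.7%). In endocardium 1 of 9 was lower (6.81% of all genes), Egln1, an oxygen-sensing hydroxylase, with medians of 66.8 against 319 CPM. None of 10 genes of the signal transduction list was called between low and high Rbp7 or between endocardium and capillary cells. Of all genes 0.241% and 13.9% were called in these comparisons. Gnas, the stimulatory G protein through which Calcrl acts, had medians of 1387 CPM in capillary and 1052 in endocardial cells, and Gnai2, an inhibitory G protein of the kind Aplnr uses, 1242 and 677 CPM. In the filament list the member Nes was the 1 gene of 3 called lower in endocardium (6.81% of all genes). Vim, the general filament of mesenchymal cells, had medians of 1898 CPM in capillary and 3087 CPM in endocardial cells.

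The genes whose levels ran most like each member were read from 24 groups of at least 50 cells (library by kind) over 5989 genes. These correlations are descriptions, since groups of 1 library share its preparation and depth. Apln was most like Kit (Pearson r = 0.88 of log2 levels), Rhoc (0.87) and Arhgef7 (0.87). Aplnr was most like Gm14085 (0.95), Slc28a2 (0.93) and Arhgap18 (0.92), and Adm like Tmsb10 (0.92), Dpysl3 (0.84) and Fundc2 (0.82). For the receptor genes the closest were Tmtc1 (0.96), Palm (0.94) and Cpd (0.94) for Calcrl, Nfib, S100a16 and Crip2 (0.98 each) for Ramp2, and Cyyr1 (0.95), Adgrl4 (0.95) and Cd300lg (0.94) for Ramp3. By Spearman correlation Nfib, S100a16 and Crip2 were less close to Ramp2, at 0.58, 0.48 and 0.78. Nes was most like Efnb1, Dach1 and Kcna5 (0.95 each). Among the members, r was 0.84 for Calcrl with Ramp2, 0.79 for Aplnr with Nes, 0.68 for Apln with Aplnr and -0.34 for Aplnr with Calcrl.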

How the data were processed

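The 7 genes, the lists and the comparisons were chosen with earlier results of these data known. Cells of the 5 libraries were prepared with the Chromium 3' v3.1 kit, per the labels, and processed with Cell Ranger (version not given in the sources used here), the mm10 build and Seurat 4.0.4, per the submitters' processing notes. The deposited values are natural log values, ln(1 + UMIs per 10000 of the cell), as the authors' tables show: 100% of values came out as whole UMIs within 0.01, and CPM, shares and clusters were computed from those UMIs. A gene not listed in a table was taken as 0. Whether counting used the strand is not given in the sources used here.

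Of 10961 cells, 10770 were kept. One cell failed the minimum of 200 genes and 500 UMIs with at most 15% mitochondrial UMIs, and 190 had a barcode shared with another library. Scrublet predicted 86 doublets (0.799%), which were kept. Cells were clustered with scanpy 1.11.5 and igraph 0.11.9 (2048 variable genes, 30 principal components, 15 neighbours, Leiden resolution 1, 22 clusters). A cluster was named where at least 3 of a class's markers were in at least 20% of its cells and 2-fold above the other cells. Intervals (scipy 1.17.1, 95%) cover counting error only, as do floors of 3 counts. Thinning drew 2000 UMIs from each cell and left out shallower cells. The comparison of low with high Rbp7 was run on simulated counts that held counting error only, with no spread between cells or libraries. Within a library, 91.5% to 98.9% of genes changed by 1.5 on the log2 scale were called. The simulation says nothing of errors other than counting. Named were the 7 genes, the genes that define the kinds, Kit, up to 6 genes a list by level in endothelium, and the 3 genes most like each of the 7; some list genes are not reported here. Gene and promoter positions are from RefSeq on GRCm38.p6. Python 3.11.15, numpy 2.4.6 and pandas 2.3.3 were used. Alternatives covered the weighting of cells, pseudocount, level minimum, Rbp7 split, cluster resolution, marker-based kinds, doublets, depth, shared barcodes, arterial cells and leaving out libraries.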

Additional observations from a re-analysis of the deposited data

How the results depend on the processing

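No alternative reversed a called difference. Of the alternative values for gene counts, co-detection, genes most like a member and the main differences of Apln, Aplnr and Calcrl, 96 stayed near the reported one and 27 moved. For the other single-gene differences, 225 stayed near and 34 moved. The count of genes apart between low and high Rbp7 (7) was the least stable: 26 with kinds set by markers of single cells, 4 with Rbp7 split at 2, 1 with a split at 3 UMIs, 22 with a minimum of 10 CPM, 93 with none, 22 with arterial cells counted as capillary, 24 without cKit-/DDR2+ and 13 without cKit+/DDR2+/CD45-. A split at 4 left too few cells and gave no value. With a minimum of 10 CPM and with none, the counts between endocardium and capillaries (413) were 827 and 1197, and those between cKit+/DDR2+/CD45- and cKit-/DDR2+ (73) were 254 and 892, since more genes were compared. The Apln difference by Rbp7 (1.77) was 2.00 as a mean over cells, 2.24 with kinds from markers of single cells, 0.79 with a split at 3 UMIs (call lost), 2.13 with shared barcodes kept and clusters made anew, and 2.43 with arterial cells counted. The Apln difference between cKit+/DDR2+/CD45- and cKit-/DDR2+ (1.26) was 0.76 as a mean over cells (call lost), 1.77 with marker-based kinds, 1.58 with shared barcodes kept, 1.79 with arterial cells counted, and 2.72 and 2.98 with cKit+/DDR2- replicate 1 or cKit+/DDR2+/CD45+ in place of cKit+/DDR2+/CD45-. The Adm difference by Rbp7 (1.28) was 0.0057 with a split at 3 UMIs. The causes were not tested. Aplnr in endocardium (-6.09) was -4.81 with 5 CPM added. Thinned, co-detection with Apln differed by 1.26 points for Aplnr (22.5) and 15.8 for Kit (40.2). By Spearman correlation 4 of the 21 genes most like a member were named again. Keeping shared barcodes, counting arterial cells, leaving out a sort and the other library pairs were chosen after seeing the data. Among values near 0, the difference by Rbp7 changed sign under 2 alternatives for Aplnr, 3 for Ramp3 and 1 for Nes, and that between sorts under 1 for Adm and 2 each for Calcrl and Nes. No paired analysis was possible because no result comes from a test and the sorts share no replicate numbers in the labels; kinds of cells were compared within each library. Depth limits these levels: the capillary cells of a library held as few as 119 Apln, 31 Calcrl and 19 Ramp3 UMIs.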
